A study of Mus musculus with 6 samples.

Results

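Endothelial cells line the blood vessels and keep the blood fluid, and at a wound they help it to clot. They store von Willebrand factor (Vwf), the adhesive protein that captures platelets. They also carry 2 receptors of the protein C pathway, thrombomodulin (Thbd), which turns thrombin into an activator of protein C, and the endothelial protein C receptor (Procr), which presents protein C to that complex. Tissue factor (F3) starts the clotting cascade and tissue factor pathway inhibitor (Tfpi) blocks it. Clots are dissolved by plasmin, which is released from plasminogen by tissue-type (Plat) and urokinase-type (Plau) plasminogen activators. Urokinase is held at the cell surface by its receptor (Plaur), and protease nexin-1 (Serpine2) inhibits thrombin and both activators.

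These 9 genes were chosen by their symbols from the 23420 gene symbols of the count table, and each has a row in it. The levels were compared between mouse embryonic endothelial eEnd2 cells carrying a GFP-tagged wildtype human Integrin-β1 chimera (β1-WT-GFP) and the same line carrying the chimera with glutamine in place of Lys794, a change that mimics acetylation of that lysine (β1-K794Q-GFP). Each group has 3 cultures (A, B and C). Both chimeras were stably transfected under a short fragment of the human β-actin promoter, the cells were sorted for GFP and grown to confluence without further treatment, and they keep their own mouse Integrin-β1. Cells of low and of high GFP were both sorted per the design text of the series, and 3 cultures of the sorted cells were sequenced for each chimera. The sources used here do not say which culture came from which sort or whether a letter marks a shared day. The p-values below therefore measure the spread between cultures, which may be partly technical. Separate transfections of a chimera are not described, and the spread between such transfections was not tested.

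The totals ranged from 9589826 to 15287191 counts per culture. On these unscaled totals, the limit that a count of 0 allows (3 counts) lay between 0.196 and 0.313 CPM, counting error only. Levels are given as normalized counts, which are CPM (counts scaled to a common library size) after TMM scaling. Where 3 values of a group follow each other, they are those of cultures A, B and C in this order. Of the 13 endothelial markers checked, all passed the filter on low counts, and Pecam1 had at least 1779 CPM in every culture. Cldn5, a tight junction gene among them, had 267, 252 and 4.74 CPM in the β1-WT-GFP cultures and 17.5, 0 and 24.3 in the β1-K794Q-GFP cultures, which did not pass the thresholds set out further on. Markers of mural cells and fibroblasts summed to between 0.79 and 3.18 CPM in 5 cultures and to 28.0 in β1-WT-GFP culture C. Sums were at most 11.2 CPM for 6 platelet markers, 0.592 for 5 epithelial markers and 0.0963 for 4 hepatocyte markers, while 5 leukocyte markers summed to between 31.8 and 104, most of it Cd68. Dcn, Lum, Ppbp, Lyz2, Epcam, Krt18, Cldn4, Ttr and Fgb had no count in any culture. β1-WT-GFP cultures A and B were much alike, with 23 of 11608 tested genes (0.198%) at least 2-fold apart on the log2(CPM + 1) scale, whereas β1-WT-GFP culture C differed from them at 2478 and 2351 genes. Within the β1-K794Q-GFP group, culture B was 2-fold apart from A at 1787 genes and from C at 2359, and A from C at 796. In these bulk RNA samples, fewer cells that express a gene and less of its RNA per cell cannot be told apart.

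The 9 genes lie on 7 chromosomes, with Tfpi, Thbd and Procr on chromosome 2, and no annotated gene of GENCODE M21 (GRCm38) overlaps any of them. Of the 9 genes, 5 have an entry in the RefSeq promoter table of GRCm38.p6. For Vwf, Thbd, Plat and Plau no sequence is printed. The stretches below, cut from the RefSeq letters, are the 150 bases just before the GENCODE start of 4 genes, 5′ to 3′ on the strand of the gene. They are shown because Procr and Plaur, described further on, shared their highest and lowest cultures, Tfpi hardly varied, and F3 had almost no counts. Capitals mark TGANTCA, the letters known as a binding motif of AP-1, a factor built from Fos and Jun proteins. The stretches are chr2:155750967-155751116 (plus strand) for Procr, chr7:24462334-24462483 (plus strand) for Plaur, chr3:121723387-121723536 (plus strand) for F3 and chr2:84476776-84476925 (minus strand) for Tfpi.
Procr: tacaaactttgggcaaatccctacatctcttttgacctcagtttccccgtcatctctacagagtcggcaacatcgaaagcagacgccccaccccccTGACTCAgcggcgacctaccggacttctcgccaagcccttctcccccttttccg
Plaur: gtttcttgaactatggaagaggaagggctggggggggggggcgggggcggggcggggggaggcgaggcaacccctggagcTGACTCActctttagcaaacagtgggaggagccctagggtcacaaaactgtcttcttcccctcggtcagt
F3: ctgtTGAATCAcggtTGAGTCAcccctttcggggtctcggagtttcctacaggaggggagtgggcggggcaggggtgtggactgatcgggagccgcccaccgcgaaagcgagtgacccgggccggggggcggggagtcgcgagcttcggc
Tfpi: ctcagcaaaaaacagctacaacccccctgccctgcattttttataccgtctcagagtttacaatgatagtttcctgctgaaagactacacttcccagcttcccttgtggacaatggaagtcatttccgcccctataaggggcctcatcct

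In Procr the motif began 54 bases before the start, and in Plaur 70 bases before it. F3 held it at 146 and at 135 bases. Over the 300-base RefSeq windows, TGANTCA was found in 3 of the 5 genes with an entry (Procr, Plaur and F3), in neither of the 2 windows of Tfpi nor in that of Serpine2, and in 7.81% of all 32851 windows. The other motifs searched, on both strands as well, were common everywhere: GGAA (ETS factors) was in 96.0% of windows, GATA in 57.9% and CACCC (Kruppel-like factors) in 57.5%. These matches are letters in a window and were not measured as binding. One CACCC overlaps the TGANTCA match of F3 at 135 bases.

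Compared per length of exon, the most abundant of the genes were Procr and Plau, with medians over the 6 cultures of 103 and 93.1 CPM per kb. Thbd had a median of 64.6, Tfpi 24.2, Plaur 9.58, Plat 0.486 and Vwf 0.104 CPM per kb. The ranges of neighbours in this order overlapped from Procr to Plaur, so their order differed between cultures. The lowest Plaur level, 4.17 CPM per kb, lay above the highest Plat level at 4.06, and the lowest Plat level, 0.322, above the highest Vwf level at 0.150. Urokinase RNA thus exceeded that of tissue-type activator in every culture, by 85.1-fold (β1-K794Q-GFP culture B) to 379-fold (β1-WT-GFP culture C) per length. F3 and Serpine2 had medians of 0.

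**Figure D1:**
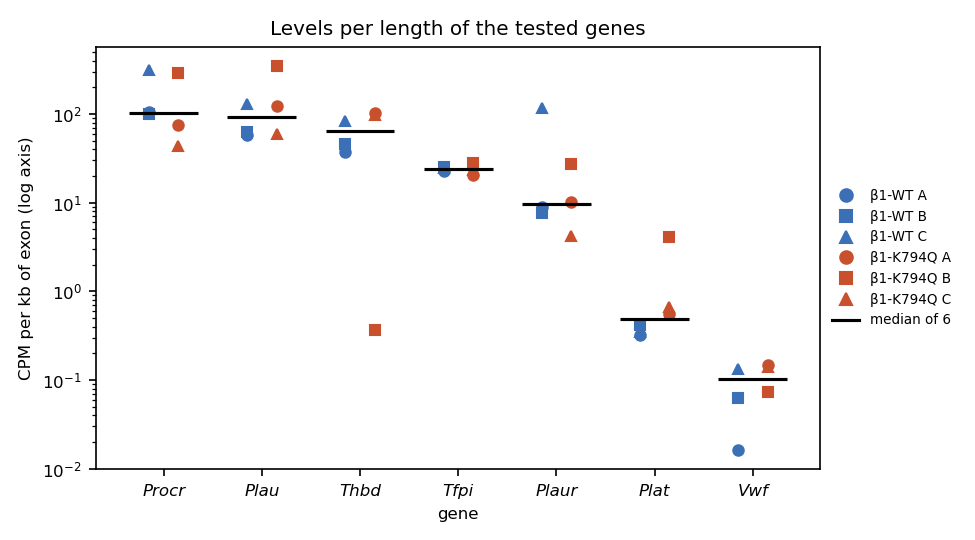
Level of each of the 7 tested genes in CPM per kb of exon on a log axis, in β1-WT-GFP (blue) and β1-K794Q-GFP (orange-red) cultures A (circles), B (squares) and C (triangles), with the median of 6 as a line. Procr and Plau lie highest and Vwf lowest, and Thbd falls to 0.371 in β1-K794Q-GFP culture B.

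Of the 9 genes, 7 passed edgeR's filter on low counts and were tested (quasi-likelihood F-test over all 11608 genes, two-sided). Only Plat was past both thresholds, at least a 2-fold difference with p at 0.05 or less before adjustment, and it was higher in β1-K794Q-GFP cells. Among all tested genes 5.19% were past both thresholds (3.48% higher and 1.71% lower), so that 1 call among 7 says nothing about the genes as a set. Plat was also the only one of the 7 whose groups did not overlap, against 16.6% of all tested genes (8.45% with β1-K794Q-GFP above and 8.12% below). After Benjamini-Hochberg adjustment over all genes 0 of the 7 had a p of at most 0.05 in edgeR (1 at an unadjusted p), and 0 in DESeq2 (1 at an unadjusted p). Among all genes 0.181% had such an adjusted p in edgeR and 4.15% in DESeq2. An unadjusted p of at most 0.05 was reached by 1180 of the 11608 genes in edgeR. The median log2 fold change of the 7 was 0.26, and that of all tested genes was -0.02.

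**Figure D2:**
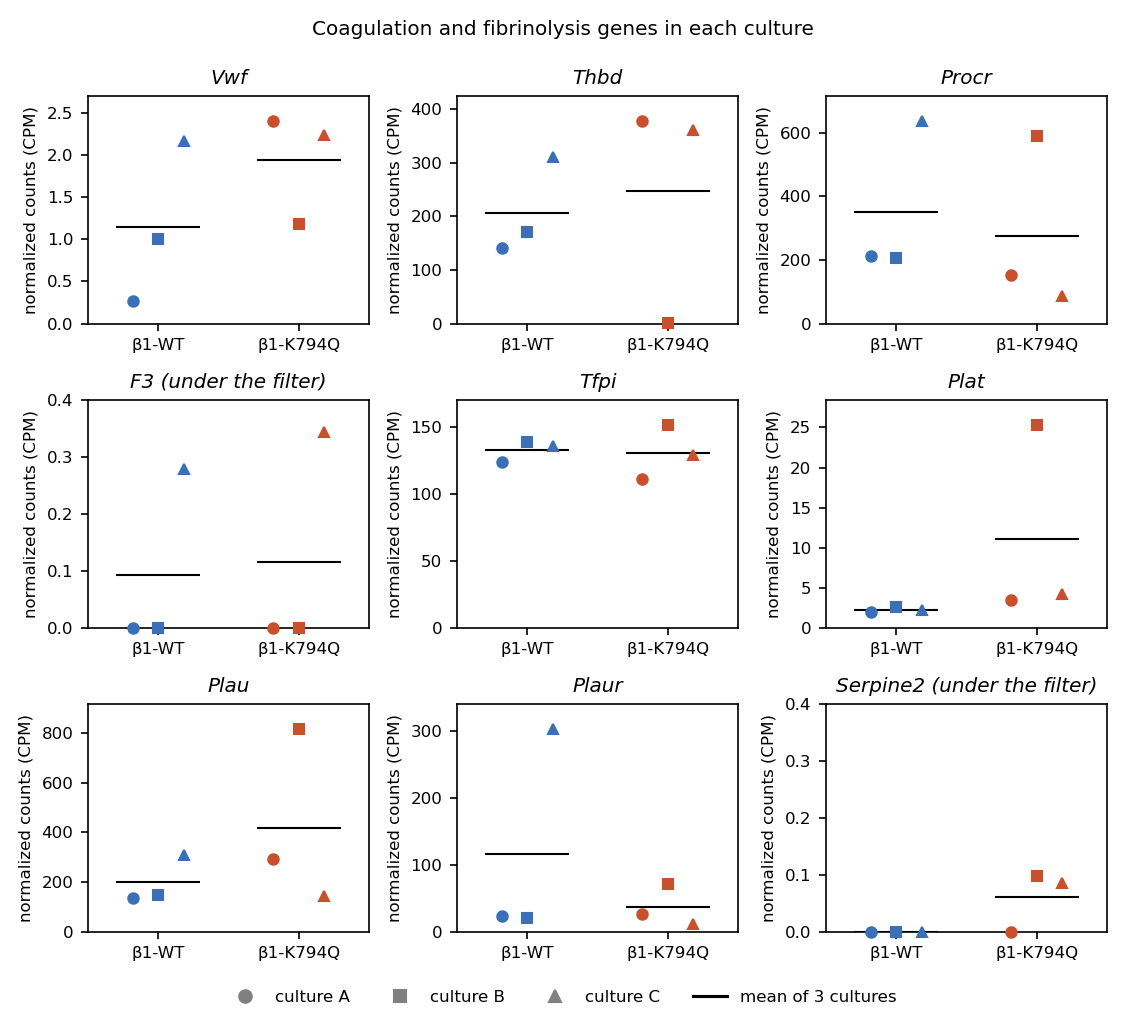
Normalized counts (CPM, linear axes from 0) of the 9 genes in β1-WT-GFP (blue) and β1-K794Q-GFP (orange-red) cultures A (circles), B (squares) and C (triangles), with the mean of 3 cultures as a line. β1-K794Q-GFP culture B is lowest for Thbd and highest for Plat and Plau, and β1-WT-GFP culture C is highest for Procr and Plaur.

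Vwf (chromosome 6, 125546774 to 125686679, plus strand) gave little RNA. Cultures A, B and C had 3, 10 and 31 counts in β1-WT-GFP cells and 25, 12 and 26 counts in β1-K794Q-GFP cells. On the normalized scale the 2 highest values were those of β1-K794Q-GFP cultures A and C at 2.41 and 2.24 CPM, but β1-WT-GFP culture C with 2.16 CPM lay close below them and the groups overlapped. The log2 fold change was 0.75 (standard error 0.75, 95% interval -1.06 to 2.56, adjusted p = 0.836 by edgeR). Dropping culture C of the β1-WT-GFP group gave 1.63 and dropping its culture A 0.29, and neither was past the thresholds. A fold change of the size fitted was within the spread between cultures. The 6 platelet markers did not move together. Pf4, which like Vwf is made by megakaryocytes, was lower in each β1-K794Q-GFP culture (0.867, 2.37 and 2.06 CPM) than in the β1-WT-GFP cultures (2.97, 4.10 and 6.20 CPM). Its unadjusted p was 0.0404 and its adjusted p 0.449 by edgeR, where 1.71% of all tested genes were lower and past both thresholds. Gp1ba, which was not tested, had 3, 10 and 6 counts in the β1-K794Q-GFP cultures and 0, 2 and 1 in the β1-WT-GFP cultures. Itga2b had a log2 fold change of -0.09, Gp9 had at most 8 counts, Gp1bb at most 2 and Ppbp none.

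Thbd, the thrombin receptor of the protein C pathway, is a single-exon gene (chromosome 2, 148404466 to 148408188). It had 140, 170 and 311 CPM in the β1-WT-GFP cultures and 378, 1.38 and 362 CPM in the β1-K794Q-GFP cultures. β1-K794Q-GFP cultures A and C thus lay above each β1-WT-GFP culture, while culture B had 14 counts and was 268-fold lower than the mean of A and C. The groups overlapped. Their difference was 0.26 on the log2 scale (standard error 1.39, 95% interval -3.11 to 3.62, edgeR adjusted p = 0.975). Its sign changed to -0.19 without β1-K794Q-GFP culture A and to -0.12 without culture C, and it was 0.84 without culture B. Over the 6 cultures the SD of log2(CPM + 1) was 2.81 for Thbd and 0.36 for the median tested gene, and 0.207% of tested genes had a larger one. The highest culture was 274-fold above the lowest, a ratio that 21 of 11046 genes reached (those over 3 counts in every culture, Thbd included).

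Procr (chromosome 2, 155751117 to 155755471), the partner of Thbd in this pathway, did not follow it. Its levels were 214, 205 and 638 CPM in the β1-WT-GFP cultures and 152, 588 and 87.7 CPM in the β1-K794Q-GFP cultures. The high values were those of β1-WT-GFP culture C and β1-K794Q-GFP culture B, so that the groups overlapped. The log2 fold change of -0.35 (standard error 0.81, 95% interval -2.31 to 1.60, adjusted p = 0.937 by edgeR) became 0.41 without β1-WT-GFP culture C and -1.56 without β1-K794Q-GFP culture B. The ratio of Thbd to Procr per length was 0.357, 0.453 and 0.266 in the β1-WT-GFP cultures. In β1-K794Q-GFP cells it was 1.36, 0.00128 and 2.25, above and below all β1-WT-GFP cultures (exact permutation test of log2 ratios, two-sided, p = 1).

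Because β1-WT-GFP culture C and β1-K794Q-GFP culture B stand apart over many genes, the fit was repeated without both, an alternative chosen after the data were seen. With the remaining 4 cultures Thbd was higher in β1-K794Q-GFP cells, with a log2 fold change of 1.27 (adjusted p = 0.0129 by edgeR), and so was Vwf with 1.91 (adjusted p = 0.108). Procr was lower, at -0.79, which is under the fold threshold (unadjusted p = 0.034, adjusted p = 0.126 by edgeR). In that fit 14.2% of 11721 genes were past both thresholds. An adjusted p of at most 0.05 was reached by 1796 genes, 1 of the 7 among them. The spread of β1-WT-GFP cells came only from cultures A and B, which are almost the same. With all cultures kept, Thbd, Vwf and Procr were not past both thresholds.

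F3 (chromosome 3, 121723537 to 121735048) was almost absent. It had 4 counts in β1-WT-GFP culture C, 4 counts in β1-K794Q-GFP culture C and 0 in each of the other 4 cultures, so no fold change was computed. Tfpi (chromosome 2, 84432855 to 84476775), its inhibitor, was the steadiest of the genes. It had 124, 139 and 135 CPM in the β1-WT-GFP cultures and 111, 152 and 129 CPM in the β1-K794Q-GFP cultures, a mean of 133 ± 7.82 and 131 ± 20.3 CPM (SD, n = 3 each). The highest culture was 1.37-fold above the lowest, and 92.5% of tested genes had a larger SD over the cultures. The log2 fold change was -0.02 with a 95% interval of -0.45 to 0.40 (adjusted p = 0.98 by edgeR).

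Plat (chromosome 8, 22757727 to 22782844), which encodes tissue-type plasminogen activator, had 2.01, 2.60 and 2.16 CPM in the β1-WT-GFP cultures and 3.47, 25.4 and 4.21 CPM in the β1-K794Q-GFP cultures. The lowest β1-K794Q-GFP value exceeded the highest β1-WT-GFP value (two-sided exact permutation p = 0.1, the least possible with 3 against 3), and culture B was 6.61-fold above the mean of A and C. The log2 fold change was 2.28 (standard error 0.84, 95% interval 0.26 to 4.30, unadjusted p = 0.0325, adjusted p = 0.416 by edgeR). Without β1-K794Q-GFP culture B it was 0.77 and no longer past the thresholds, and without any one of the β1-WT-GFP cultures it stayed above 2 (2.26 without culture C) but also missed the threshold for p. With the culture letter as a block it was 1.66 (unadjusted p = 0.0583). The call rested on between 23 and 49 counts in 5 cultures and 257 in β1-K794Q-GFP culture B.

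Plau (chromosome 14, 20836660 to 20843385), the urokinase gene, had 137, 147 and 310 CPM in the β1-WT-GFP cultures and 294, 818 and 142 CPM in the β1-K794Q-GFP cultures. β1-K794Q-GFP culture B was again highest, at 3.75 times the mean of A and C, and β1-K794Q-GFP culture C lay among the β1-WT-GFP cultures. The log2 fold change of 1.08 (standard error 0.68, 95% interval -0.57 to 2.73, adjusted p = 0.7 by edgeR) was 0.14 without β1-K794Q-GFP culture B. It was 1.49 without β1-K794Q-GFP culture C, and only in that fit was it past both thresholds.

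Plaur (chromosome 7, 24462484 to 24475968), the urokinase receptor, had 23.2, 19.8 and 304 CPM in the β1-WT-GFP cultures and 27.0, 70.7 and 10.9 CPM in the β1-K794Q-GFP cultures. β1-WT-GFP culture C stood 14.2-fold above the mean of A and B. The log2 fold change of -1.68 (standard error 1.23, 95% interval -4.64 to 1.29, adjusted p = 0.753 by edgeR) was 0.76 without this culture. Procr and Plaur shared their 2 highest cultures, β1-WT-GFP culture C and then β1-K794Q-GFP culture B, and their lowest, β1-K794Q-GFP culture C. These 2 cultures were not highest for Procr and Plaur alone. Plau had them in the reverse order, and F2r, Entpd1 and Anxa2 of the wider lists in the same order. Fos and Egr1, early response genes that were named after their values were seen, had the same 2 highest cultures. Fos had 53.4 CPM in β1-WT-GFP culture C and 7.11 in β1-K794Q-GFP culture B, against 0.4 to 1.44 in the other 4. Egr1 had 318 and 7.11 CPM in these cultures and 1.72 to 2.89 in the rest. Jun had another order, with 212 CPM in β1-WT-GFP culture C, then 173 in β1-K794Q-GFP culture A and 167 in culture B, and 85.0 to 138 in the other 3. Whether these factors or the mural marker genes, whose sum was also highest in β1-WT-GFP culture C, have a part in the levels of Procr and Plaur was not tested.

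**Figure D3:**
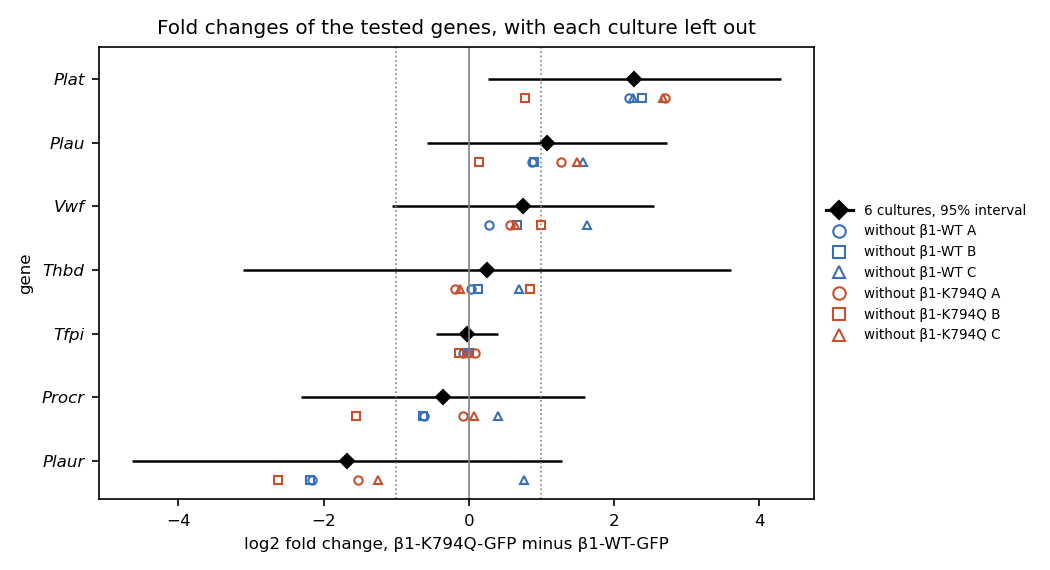
Log2 fold change of the 7 tested genes, β1-K794Q-GFP minus β1-WT-GFP, with its 95% interval (black) and the values with each culture left out in turn (open symbols, blue for β1-WT-GFP and orange-red for β1-K794Q-GFP cultures). The interval of Plat alone lies off 0, and the fit without β1-K794Q-GFP culture B brings it to 0.77.

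Relative to its receptor, urokinase RNA separated the groups. The ratio of Plau to Plaur per length was 6.53, 8.19 and 1.13 in the β1-WT-GFP cultures and 12.1, 12.8 and 14.4 in the β1-K794Q-GFP cultures. The log2 ratio averaged 1.97 ± 1.57 and 3.71 ± 0.13 (SD, n = 3 each). The lowest β1-K794Q-GFP ratio was 1.47-fold above the highest β1-WT-GFP ratio (two-sided exact permutation p = 0.1, which 3 against 3 cannot undercut). This was 1 of 5 ratios computed, which were not among the planned tests, and the only one whose groups did not overlap. With p-values adjusted over the 5 ratios its p was 0.375. Among all single genes tested, 16.6% had groups that did not overlap, a share that holds for levels of genes and not for ratios. The ratio of Plau to Plat, whose groups overlapped, was 179, 149 and 379 in the β1-WT-GFP cultures and 224, 85.1 and 89.1 in the β1-K794Q-GFP cultures (two-sided exact permutation p = 0.3).

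**Figure D4:**
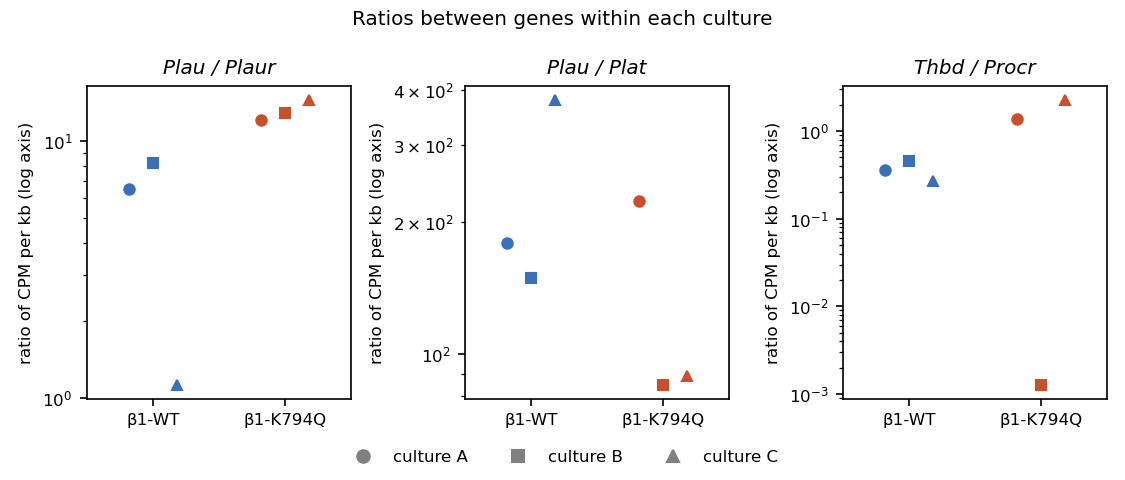
Ratios of CPM per kb on log axes for Plau to Plaur, Plau to Plat and Thbd to Procr in β1-WT-GFP (blue) and β1-K794Q-GFP (orange-red) cultures A (circles), B (squares) and C (triangles). The groups are apart only for Plau to Plaur, where β1-K794Q-GFP cultures lie between 12.1 and 14.4.

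Serpine2 (chromosome 1, 79794197 to 79861180) had 1 count in β1-K794Q-GFP culture B, 1 in culture C and 0 in the other 4 cultures, so protease nexin-1 RNA was at or under the limit of detection everywhere.

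Of 74 further genes of haemostasis in 8 lists, 41 were tested and 3 passed both (each higher with K794Q), beside the 5.19% of all tested genes. After adjustment 0 of them remained in edgeR (5 at an unadjusted p of at most 0.05, beside 1180 of all 11608 genes). In DESeq2 3 remained (6 unadjusted), where 4.15% of all 11487 genes with an adjusted p were at 0.05 or under. The median log2 fold change of the 41 tested genes was -0.0016. In the list of 16 clotting factors 11 had no count in any culture and only F8 (factor VIII) was tested. F8 had 399, 443 and 153 CPM in the β1-WT-GFP cultures and 374, 460 and 394 CPM in the β1-K794Q-GFP cultures (log2 fold change 0.30, standard error 0.41). Of 4 protease-activated receptor genes 2 were tested and neither was past the thresholds. F2r (PAR1), the main thrombin receptor, ranged from 17.0 to 387 CPM with its 2 highest values in β1-WT-GFP culture C and β1-K794Q-GFP culture B, as for Procr and Plaur. F2rl3 (PAR4) was lowest in β1-WT-GFP culture C, at 23.1 CPM.
Among 10 other anticoagulants 4 were tested and 0 were past the thresholds. Pros1 (protein S), the cofactor of activated protein C, had log2 fold change -0.29 (standard error 0.34), and Anxa5 (annexin A5), which covers phosphatidylserine, 0.26 (standard error 0.39). Hs3st1, an enzyme of heparan sulfate sulfation, had 25.5 CPM in β1-K794Q-GFP culture C and 0.578 to 2.57 CPM elsewhere. Among 10 other fibrinolysis genes 5 were tested and 0 were past the thresholds. Anxa2 and S100a10, the subunits of a plasminogen receptor, had log2 fold changes of -0.35 and -0.20, each with its highest level in β1-WT-GFP culture C. Eno1 is listed at 0 in every culture, a value that is uncertain because its reads can be shared with near-identical copies.

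**Figure D5:**
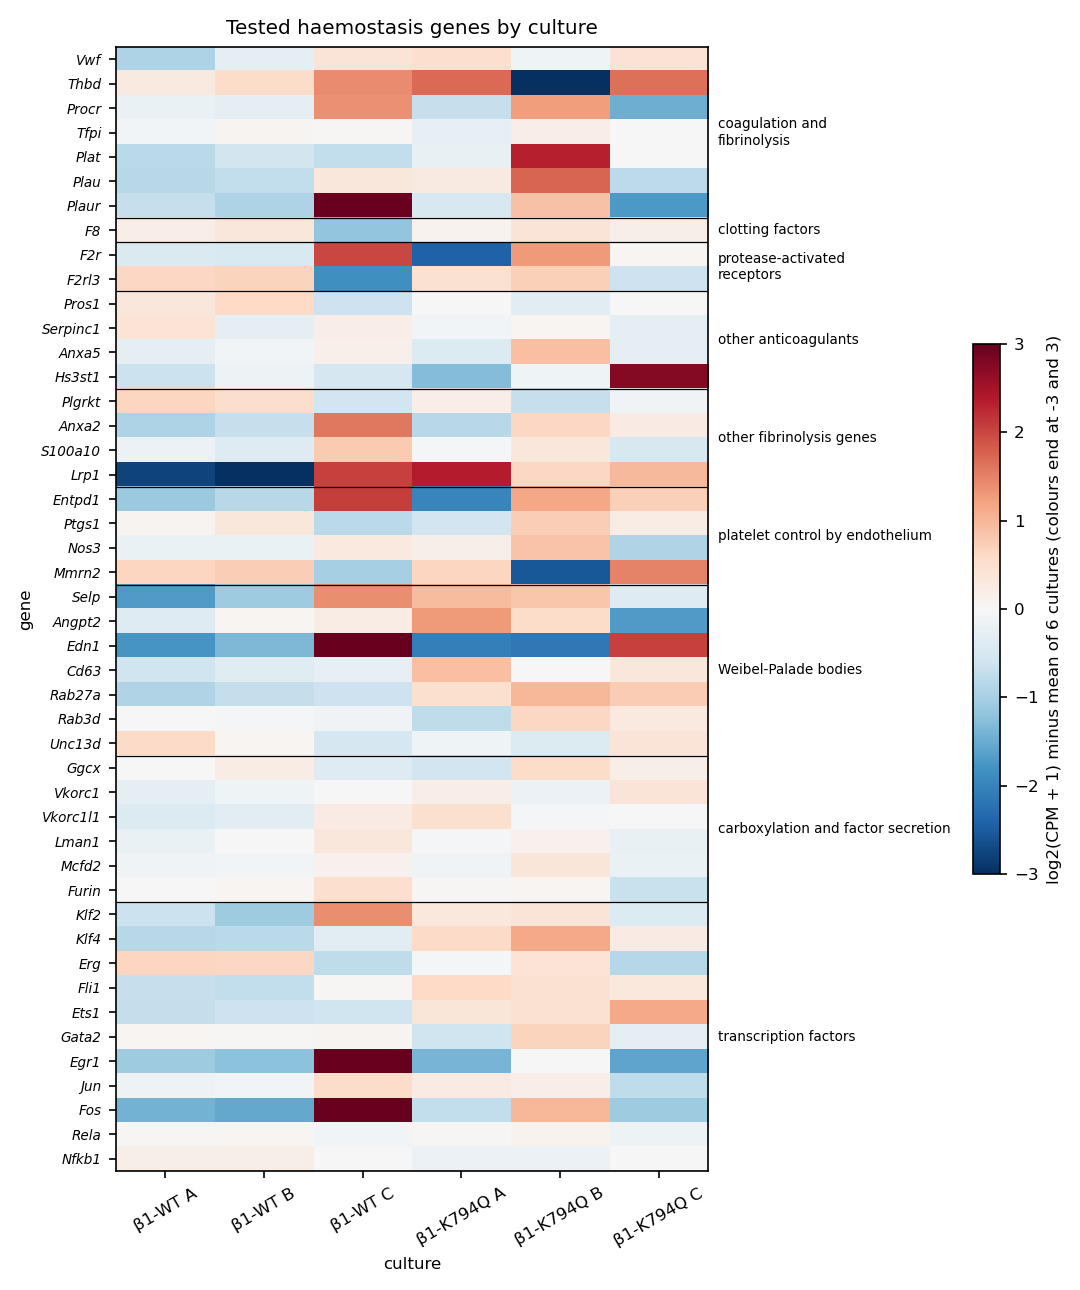
Log2(CPM + 1) minus the mean of the 6 cultures, for tested genes of coagulation and fibrinolysis and of the wider lists (rows) in each culture (columns), with red above and blue below the mean and colours ending at -3 and 3. The darkest red of Plaur, Edn1, Egr1 and Fos lies in β1-WT-GFP culture C and the darkest blue of Thbd in β1-K794Q-GFP culture B, while Rab27a, Klf4 and Ets1 are above the mean in all 3 β1-K794Q-GFP cultures.

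Among the genes outside these lists, those whose levels followed a gene most closely over the 6 cultures were named by Pearson's r of log2(CPM + 1). With 6 points, 11608 genes to choose from and libraries in common, a value near 1 describes only a like pattern over the cultures. The order of cultures could still differ, as for Plau and Pfkp (Spearman's rho of the ranks 0.714). The closest to Thbd were Antxr1 (r = 0.997) and Vldlr (0.995), and to Procr Psmb5 (0.995) and Dynll1 (0.994). Plat was followed by E130311K13Rik (0.995) and Cd81 (0.99), Plau by Polr2a (0.996) and Pfkp (0.995), and Plaur by Mki67ip (0.993) and Ccnk (0.992). The closest to Tfpi were Churc1 (0.998) and Mrrf (0.989), and to Vwf Mgme1 (0.978) and Phtf1 (0.977).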

How the data were processed

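RNA was sequenced from 6 confluent eEnd2 cultures after rRNA removal. The deposited values are raw counts per gene symbol, which the authors made with bcl2fastq 2.20.0, STAR 2.7.4a and HTSeq 0.9.1 on mm10 per the labels and the submitters' processing notes, which also list edgeR 3.38.4. Reads of near-identical genes can be lost or shared in such counting, and replicates were not pooled.

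Counts were tested with edgeR 4.0.16 in R 4.3.3 (filterByExpr, TMM, glmQLFit, glmQLFTest; β1-K794Q-GFP minus β1-WT-GFP, 3 cultures each). Genes were called at 2-fold or more with p at 0.05 or less before adjustment, and Benjamini-Hochberg adjustment ran over all 11608 genes tested. Log2(CPM + 1) was used for spreads. The alternatives were DESeq2 1.42.0, RLE scaling, other count filters, the culture letter as a block, the level of the 25 neighbouring genes as an offset, and leaving out cultures. The code was tested on simulated data. Of the symbols, 23011 had a position in GENCODE M21, 1274 through a synonym, and exon lengths came from there. Python 3.11.15 with pandas 2.3.3, numpy 2.4.6 and matplotlib 3.10.9 did the rest.

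Groups and letters came from the sample labels. The genes and lists were chosen with earlier results of these data known. Besides the 9 genes, the text names in each wider list every gene past both thresholds and at most 3 more, those with the highest mean CPM first, and for each gene the 2 genes outside the lists with the highest Pearson r. Egr1, Fos, Nfkb1, Edn1, Lrp1 and Eno1 fall outside this rule and were named after their values were seen. Some genes of the wider lists, which count in the totals, are not reported here. In the 3 against 3 permutation tests the smallest two-sided p is 0.1. The limits that a count of 0 allows cover counting error only.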

Additional observations from a re-analysis of the deposited data

How the results depend on the processing

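Among 83 planned fits of the 7 genes, 68 kept their direction and side of the thresholds, 5 lost a call, 1 gained one and 9 changed direction. Plat stayed past both thresholds under other filters, RLE scaling, DESeq2 and the regional offset. The count of all genes past both thresholds was 603, and was 916 with no filter, 425 of 10541 with at least 10 counts in every culture, 605 with RLE scaling, 695 with DESeq2 and 511 with the regional offset. Leaving out 1 culture gave 501 to 992 genes (992 without β1-WT-GFP culture C, 942 without β1-K794Q-GFP culture B), and leaving out both of these 1661. The count among the 9 genes, 1 in the fit reported, was 0 to 2 with 1 culture left out and 2 without both. That of the wider lists, 3, was 4 to 6 and 7. With 1 culture left out, the log2 fold changes ran from 0.29 to 1.63 for Vwf, -0.19 to 0.84 for Thbd, -1.56 to 0.41 for Procr, -0.14 to 0.0806 for Tfpi, 0.77 to 2.702 for Plat, 0.14 to 1.57 for Plau and -2.62 to 0.76 for Plaur. Without both cultures they were 1.91 for Vwf, 1.27 for Thbd, -0.79 for Procr, -0.11 for Tfpi, 0.75 for Plat, 0.64 for Plau and -0.17 for Plaur. The cause was not tested.

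Samples with the same letter were not shown to pair, since their deviations from the group means correlated by 0.120 (A), 0.0558 (B) and 0.109 (C) and β1-K794Q-GFP culture A was closest to β1-WT-GFP culture B (0.126). The letter as a block gave 571 genes, 0 of the 9 genes and 5 of the wider lists, with log2 fold changes of 1.66 for Plat, -0.75 for Thbd and -0.50 for Plaur (-1.68 without the block). Depth limits F3 and Serpine2, which have no fold change, and Vwf.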

Other observations

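Of the Weibel-Palade body genes, whose products form or empty the granules that store von Willebrand factor, 8 of 9 were tested, 1 rose past both thresholds and 2 had groups that did not overlap, beside 5.19% and 16.6% of all tested genes. Rab27a, a small GTPase on these granules, had 7.79, 9.00 and 9.68 CPM in the β1-WT-GFP cultures and 22.1, 32.0 and 26.9 CPM in the β1-K794Q-GFP cultures (log2 fold change 1.61, standard error 0.23, adjusted p = 0.0866 by edgeR). Cd63, a tetraspanin of the granule membrane, was also higher in each β1-K794Q-GFP culture, with a log2 fold change of 0.85 (unadjusted p = 0.0224, adjusted p = 0.357 by edgeR), under the fold threshold. Selp (P-selectin) had a log2 fold change of 0.39, and its groups overlapped. Edn1 (endothelin-1) had 234 CPM in β1-WT-GFP culture C and 24.2 in β1-K794Q-GFP culture C, against 0.395 to 1.40 in the other 4 cultures.

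Among 11 transcription factors known to act on genes of this kind, 2 rose past both thresholds and 0 fell, beside 3.48% and 1.71% of all tested genes. In 4 of the 11 the groups did not overlap (16.6% of all tested genes), with β1-K794Q-GFP cells above for Klf4, Ets1 and Fli1 and below for Nfkb1, which was named after its values were seen. Klf4, a Kruppel-like factor, had 71.0, 72.6 and 101.7 CPM in the β1-WT-GFP cultures and 192, 283 and 153 CPM in the β1-K794Q-GFP cultures (log2 fold change 1.36, standard error 0.29, adjusted p = 0.161 by edgeR). Ets1 had 201, 214 and 217 CPM in the β1-WT-GFP cultures and 427, 451 and 723 CPM in the β1-K794Q-GFP cultures (log2 fold change 1.34, standard error 0.26, adjusted p = 0.139 by edgeR). Rab27a, Klf4 and Ets1 were past both thresholds in each alternative fit run. Fli1 had a log2 fold change of 0.89 (unadjusted p = 0.0138, adjusted p = 0.296 by edgeR), Erg of -0.36 and Jun of -0.17. Of 4 tested genes of platelet control by endothelium 0 were past the thresholds. Nos3 (endothelial nitric oxide synthase) had a log2 fold change of 0.23, Mmrn2 of 0.29 with only 55.0 CPM in β1-K794Q-GFP culture B, and Entpd1, which breaks down ADP, of -0.35 with 517 CPM in β1-WT-GFP culture C. The 6 genes of carboxylation and factor secretion were all tested and 0 were past the thresholds, with Furin at -0.36, Lman1 at -0.11 and Mcfd2 at 0.05 on the log2 scale. Lrp1, a receptor that clears plasminogen activators, had 1.66, 1.00 and 74.8 CPM in the β1-WT-GFP cultures, against 92.7, 27.0 and 35.1 in the β1-K794Q-GFP cultures.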
